A study of Mus musculus with 18 samples.

Results

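The guanylate-binding proteins (GBPs) are large GTPases that macrophages make in response to interferons, and their genes were followed here in bone marrow-derived macrophages (BMDMs) cocultured with renal tubular epithelial cells (TECs). The family was taken by gene symbol: Gbp2, Gbp2b, Gbp3, Gbp4, Gbp5, Gbp6, Gbp7, Gbp8, Gbp9 and Gbp10, which are 10 of the 25926 genes in the expression table, and each of the 10 was found there. Expression was given as FPKM, that is, mapped fragments scaled for the length of the gene and for the total of the sample, so that levels can be set beside each other between genes.

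The macrophages came from C57BL/6J mice and were grown for 7 days in RPMI with 50 ng/mL M-CSF, the growth factor that turns marrow cells into macrophages. In all 3 groups they sat on the upper side of a Transwell membrane (0.4 μm pores), so that they shared medium with the TECs below without touching them. In NC (6 samples) the TECs were free of crystals and the macrophages were given PBS. In COM (6 samples) the TECs were treated for 24 h with calcium oxalate monohydrate crystals at 100 μg/mL and the macrophages were again given PBS. In COM+Met (6 samples) the TECs were treated with the same crystals and the macrophages were given Met at 5 mM for 24 h. The labels do not spell out Met. Nor do they give the mice or cultures behind the samples of a group, so p-values measure only how these samples vary, and that variation may be technical. The crystals were given to the TECs and not to the macrophages, and COM was compared with NC to ask how the macrophages above such TECs differ. COM+Met was compared with COM to ask what Met changed, and with NC to ask how far the cells then lay from the control.

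GBPs are induced by interferon gamma and by type I interferons through transcription factors such as Stat2, Irf9 and Irf1, which act at the interferon-stimulated response element (ISRE) and the gamma-activated site (GAS) in their promoters. The proteins coat vacuoles that hold parasites or bacteria, and coat bacteria in the cytosol. They help to release lipopolysaccharide and DNA to caspase-11 (gene Casp4) and Aim2, and so lead to inflammasome activation and pyroptosis. In mice the genes lie in 2 groups, on chromosomes 3 and 5.

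In GENCODE M21 on GRCm38 the chromosome 3 group (Gbp5, Gbp7, Gbp3, Gbp2b and Gbp2, in this order) spans 144.0 kb from position 142493978 to 142638008 on the plus strand. The chromosome 5 group (Gbp8, Gbp9, Gbp4, Gbp10, Gbp6 and the non-member Gbp11) spans 332.3 kb from 105014150 to 105346472 on the minus strand. Each of the 10 members was annotated as protein coding, and the longest coding transcript had 11 exons in 9 of them and 10 exons in Gbp8. The annotated spans of Gbp8, Gbp9 and Gbp4 overlap, so reads of one could be counted for another. Gbp6 and Gbp10 share sequence: 60.1% of the 100-base words in the transcripts of Gbp10 also stand in Gbp6, and 63.6% stand in Gm43302, a further gene that is listed in the table. Of the words of Gbp6, 36.3% stand in Gbp10 and 59.0% in Gm43302. The levels of Gbp6 and Gbp10 are therefore uncertain one by one. At most 4.4% of the words of any of the other 8 members stood elsewhere in the family.

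Promoters are shown because the members moved together and the family is known for its ISRE. RefSeq promoters (GRCm38.p6, 250 bases before to 50 bases after the start site) were given for the 5 members on chromosome 3, with 2 start sites for Gbp3. Each of the 5 genes held the ISRE core GAAANNGAAA on at least 1 strand of a promoter. This motif stood in 3.44% of all 32851 promoters. The windows below run on the plus strand, which is the coding strand of these genes, and the capitals mark the match, read here as its reverse complement.
Gbp5 (chr3:142496724-142496793): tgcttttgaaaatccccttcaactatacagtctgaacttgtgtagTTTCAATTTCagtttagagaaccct
Gbp7 (chr3:142530238-142530307): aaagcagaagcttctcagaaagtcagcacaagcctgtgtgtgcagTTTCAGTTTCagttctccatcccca
Gbp3 (chr3:142559954-142560023): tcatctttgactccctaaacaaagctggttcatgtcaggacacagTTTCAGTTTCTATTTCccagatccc
Gbp2b (chr3:142594665-142594734): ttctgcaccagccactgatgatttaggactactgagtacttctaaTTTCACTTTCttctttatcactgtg
Gbp2 (chr3:142620559-142620628): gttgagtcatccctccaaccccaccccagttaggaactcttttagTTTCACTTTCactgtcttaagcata

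The match began 59 bases before the start site in Gbp2, 53 in Gbp7, 137 in Gbp2b and 165 in Gbp5. Gbp3 held a pair of overlapping matches, which began 45 and 39 bases before its first start site, and none in the window of its other start site. The GAS motif TTCNNNGAA, which reads the same on both strands, had 2 matches each in the promoters of Gbp5 and Gbp7 and was not found in those of Gbp3, Gbp2b and Gbp2. It stood in 8.3% of all promoters. These are matches of letters and not measured binding sites. Gbp4, Gbp6, Gbp8, Gbp9 and Gbp10, on chromosome 5, are not shown.

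**Figure D1:**
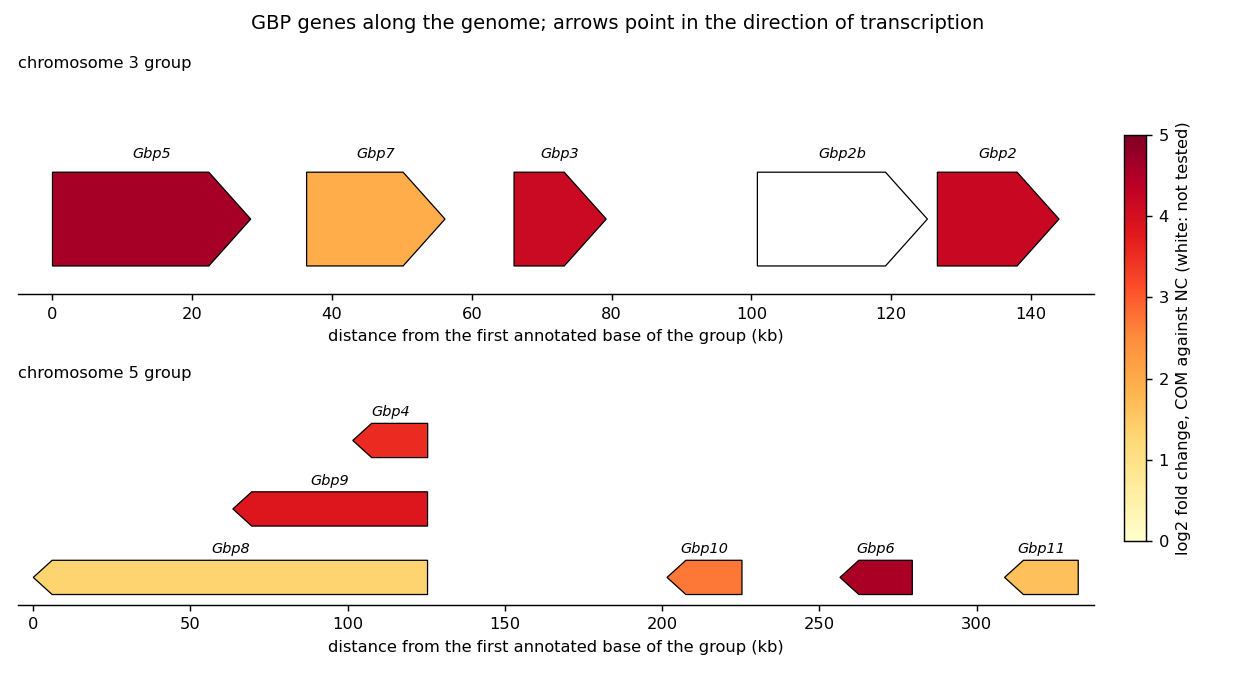
Position of the GBP genes on chromosomes 3 (top) and 5 (bottom), with the distance in kb from the first annotated base of each group on the x axis. Arrows give the direction of transcription and colour gives the log2 fold change of COM against NC. On this scale of log2(FPKM + 1), Gbp5 (4.61) and Gbp6 (4.57) stand in different groups, while Gbp7 (1.97) lies beside Gbp5. Gbp2b, drawn in white, was below the filter and was not tested.

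The samples of COM were not uniform. Over the genes that averaged 1 FPKM or more, Pearson's r of log2 values was at least 0.992 among COM-1 to COM-3 and 0.948 to 0.951 between them and COM-4 or COM-5. For COM-6 it was 0.888 to 0.935 with any other COM sample. It was 0.938 to 0.962 between NC-5 or NC-6 and the rest of NC, and at least 0.989 among the COM+Met samples. GBP results and the counts of related genes are given with and without these samples. The macrophage label was met in every group: each of 10 macrophage markers averaged 1 FPKM or more in NC, COM and COM+Met, and their sum was 10600 to 17060 FPKM. Most of that sum was Lyz2 (8531 to 14540 FPKM), and other markers differed between the groups in both directions. In NC, COM and COM+Met the medians of Mrc1 were 64.5, 3.32 and 2.53 FPKM, and those of Adgre1 were 117, 557 and 600 FPKM. For C1qa they were 5.52, 0.884 and 7.69 FPKM. Of 10 T and NK cell markers, the usual sources of interferon gamma, at most 1 reached a mean of 1 FPKM in any group, and their sum was at most 4.43 FPKM. The markers of tubular epithelium summed to 10.8 to 18.2 FPKM in NC and to at most 1.35 FPKM in the other groups. Most of that sum was Cdh1 (9.45 to 17.8 FPKM in NC). Epcam and Aqp1 were also higher in NC, with medians of 0.832 and 0.597 FPKM there and of at most 0.148 and 0.00783 FPKM in the other groups. Cdh16, Krt8, Krt18, Lrp2, Cubn, Slc34a1 and Umod were at no more than 0.0887 FPKM in any sample. The sum of the neutrophil markers moved with the groups and with the COM samples. It was 395 to 597 FPKM in NC, 307 to 330 FPKM in COM-1 to COM-3, 34.2 to 67.5 FPKM in COM-4 to COM-6 and 19.5 to 45.5 FPKM in COM+Met. Most of it was S100a8 and S100a9 in NC (189 to 324 and 114 to 259 FPKM) and S100a8 in COM. Camp went the other way in COM, with a median of 4.88 FPKM in NC and 8.62 FPKM in COM. Of these 10 markers, 4 were at 0 in every COM sample (Ly6g, Mpo, Elane and Retnlg), and these were low in NC too, at no more than 1.07 FPKM. Stromal markers summed to 14.7 to 60.9, 4.61 to 36.6 and 2.37 to 7.33 FPKM in NC, COM and COM+Met. Of these, Pdgfrb went the other way, with medians of 1.19, 4.83 and 2.81 FPKM, while the other stromal markers had their highest median in NC. The part of either list in the results was not tested. In bulk RNA, more cells that express a gene and more RNA per cell cannot be told apart.

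In the macrophages above crystal-treated TECs the GBP family was higher as a whole. The summed FPKM of the 10 genes was 20.4 to 82.9 in NC (median 62.2), 426 to 1974 in COM (median 1049) and 1373 to 1638 in COM+Met (median 1417). No COM or COM+Met sample reached down to the NC samples. Of the 10 members, 9 averaged 1 FPKM or more over NC and COM and were tested, and 9 were called higher in COM (limma on log2(FPKM + 1), adjusted p below 0.05 and at least 2-fold). Among all 10900 genes tested, 5.99% were called higher. Of the 9, Gbp4, Gbp8, Gbp9 and Gbp10 had a mean below 1 FPKM in NC and passed the filter only through COM, where they were high. Gbp2b was below the filter with a mean of 0.919 FPKM in COM and 0.0170 FPKM in NC. The 6 COM samples lay above all 6 NC samples in 8 of the 9 tested members, Gbp8 being the exception, and in Gbp2b. Of all genes tested, 8.6% had their groups apart in this way.

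Among the members best known for acting on vacuoles and the inflammasome, Gbp2 was the most abundant GBP in every group. Its FPKM in NC was 39.3, 47.0, 36.4, 29.5, 10.5 and 8.79, in the order of the sample numbers. In COM it measured 262, 268, 263, 783, 759 and 812 FPKM. The 3 first COM samples lay near each other, and the other 3 were far above them. The log2 fold change was 4.19 ± 0.48 (SE, n = 6 per group, adjusted p = 1.62e-05 from limma), and the ratio of mean FPKM was 18.4.

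Gbp5, which promotes assembly of the Nlrp3 inflammasome, had the largest difference of the family in mean log2(FPKM + 1). The ratio of its mean FPKM was 36.8, below those of Gbp10 (75.6), Gbp4 (67.3), Gbp9 (50.3) and Gbp6 (44.4), so that the order depends on the scale. It measured 6.01, 8.21, 6.17, 4.86, 1.11 and 1.37 FPKM in NC, and 44.98, 48.4, 49.4, 274, 260 and 344 FPKM in COM. The lowest COM sample was above the highest NC sample. On the log2 scale it rose by 4.61 ± 0.61 (SE, n = 6 per group, adjusted p = 5.52e-05 from limma).

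Gbp3 lies between Gbp7 and Gbp2b on chromosome 3, in the group whose joint deletion leaves mice susceptible to Toxoplasma. It ran from 2.77 to 10.8 FPKM in NC (median 8.66) and from 58.3 to 315 FPKM in COM (median 167). Its log2 fold change was 4.15 ± 0.53 (SE, n = 6 per group, adjusted p = 4.39e-05 from limma).

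Gbp7, which has been linked to assembly of the phagocyte NADPH oxidase, was the second most abundant member in NC, and its ratio of mean FPKM was 5.54. It measured 10.6, 10.1, 8.46, 10.4, 6.63 and 5.78 FPKM in NC, and 15.9, 16.1, 17.0, 68.8, 69.1 and 101 FPKM in COM. The groups did not overlap, but the gap was small between NC and the 3 first COM samples. This was a log2 fold change of 1.97 ± 0.46 (SE, n = 6 per group, adjusted p = 0.00322 from limma), and it fell to 0.87 when COM-4, COM-5 and COM-6 were left out, which is under 2-fold.

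Gbp2b, the gene long called Gbp1 in mice, was the least abundant member. It was listed at 0 in NC-5 and NC-6 and at no more than 0.0404 FPKM in the other NC samples. In COM it measured 0.275, 0.348, 0.366, 3.52, 0.399 and 0.602 FPKM, so that COM-4 was far above the rest. The difference in mean log2(FPKM + 1) was 0.74 (p = 0.00216, two-sided exact permutation test over 924 splits of 12 samples, which is the smallest p they allow).

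On chromosome 5, Gbp6 was the most abundant member in each group. It measured 2.88, 4.17, 2.699, 2.26, 1.23 and 1.02 FPKM in NC, and 27.5, 33.8, 32.9, 171, 165 and 203 FPKM in COM, with no overlap. Its log2 fold change was 4.57 ± 0.53 (SE, n = 6 per group, adjusted p = 1.89e-05 from limma). Gbp10, which shares sequence with it, measured 0.192, 0.201, 0.202, 0.132, 0 and 0.172 FPKM in NC. In COM it measured 2.83, 1.58, 1.35, 13.9, 13.5 and 34.8 FPKM, and no value fell among those of NC. The log2 fold change against NC was 2.71 ± 0.59 (SE, n = 6 per group, adjusted p = 0.0020 from limma), while the ratio of mean FPKM was 75.6, since adding 1 to FPKM shrinks the change of a gene that is near 0 in NC. With both genes summed, the log2 fold change was 4.63.

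Gbp4, which has been described as an inhibitor of Irf7, ran from 0.0486 to 0.719 FPKM in NC (median 0.624) and from 3.57 to 65.7 FPKM in COM (median 28.6). Gbp9 ran from 0.0878 to 1.16 FPKM in NC (median 0.971) and from 7.37 to 85.6 FPKM in COM (median 32.5). Neither gene had overlapping groups, and both spread more than 10-fold among the COM samples. Their log2 fold changes were 3.55 ± 0.73 and 3.85 ± 0.60 (SE, n = 6 per group, adjusted p = 0.00143 and 0.00021 from limma).

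Gbp8 had the smallest difference in mean log2(FPKM + 1) of the 9 members tested, while by the ratio of mean FPKM it stood at 6.47, above Gbp7. It measured 0.718, 0.611, 0.986, 1.53, 0.219 and 0.230 FPKM in NC, and 1.202, 0.784, 0.941, 5.82, 7.45 and 11.6 FPKM in COM. The 3 first COM samples lay inside the range of NC and the other 3 above it. Its log2 fold change of 1.34 ± 0.47 (SE, n = 6 per group) had an adjusted p of 0.0295 from limma. The call was lost when any of NC-5, NC-6, COM-4, COM-5 or COM-6 was left out (adjusted p = 0.054 to 0.069) and with sample weights (0.20 on the log2 scale, adjusted p = 0.398).

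**Figure D2:**
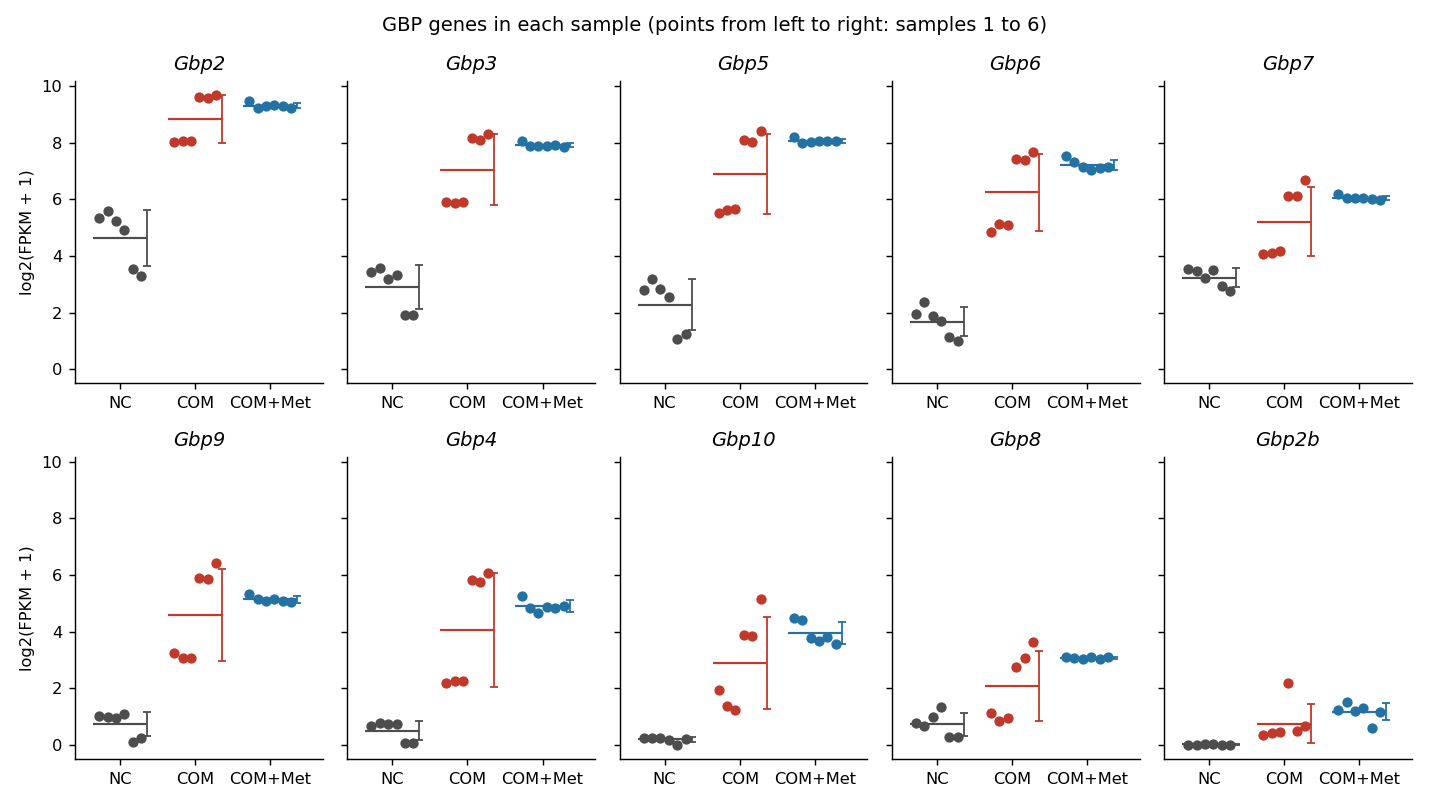
Level of each of the 10 GBP genes as log2(FPKM + 1) in NC, COM and COM+Met, with 1 point per sample (samples 1 to 6 from left to right), a line at the mean and a bar of ± 1 SD at its right end. COM-1 to COM-3 sit below COM-4 to COM-6 in every panel, NC-5 and NC-6 are low in most panels, and the COM+Met points lie close together.

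The size of these differences depended on which COM samples were used. The lowest of COM-4 to COM-6 was above the highest of COM-1 to COM-3 in all 10 members. That was so for 9.19% of the 10741 genes that averaged 1 FPKM or more, while for 44.6% of them the order was the opposite. Without COM-4, COM-5 and COM-6, Gbp8 and Gbp10 fell below the filter, 6 members were called, and their log2 fold changes against NC ran from 1.73 in Gbp4 to 3.40 in Gbp2. Without COM-1, COM-2 and COM-3, 9 were called, and the values ran from 2.44 in Gbp8 to 5.90 in Gbp5. Without NC-5 and NC-6, in which the summed GBP level was 20.4 to 22.6 FPKM against 59.7 to 82.9 FPKM in NC-1 to NC-4, 8 were called and Gbp8 was not (1.12, adjusted p = 0.124 from limma). The share of all genes called higher in these reduced fits is not given, so these counts have no share beside them.

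Over all genes the median log2 fold change was -0.27 in COM against NC and -0.26 in COM+Met against NC. Relative to that median the change of Gbp5 was 4.88 in COM, and that of Gbp8 was 1.61. All of the 9 tested members stayed higher against NC under each scaling tried (rescaling to the same sum, median-of-ratios size factors and quantile normalisation).

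In the macrophages given Met above the crystal-treated TECs, the GBP genes remained far above NC. Again 9 members were tested and 9 were called higher, where 5.66% of 10786 genes tested were called higher. Gbp4, Gbp8, Gbp9 and Gbp10 passed the filter here only through COM+Met, where they were high. The 6 COM+Met samples lay above all NC samples in each of these 9 and in Gbp2b, and in 14.1% of the genes tested. This comparison uses the same NC samples as the one above. The log2 fold changes ran from 2.34 ± 0.15 in Gbp8 (7.20 to 7.63 FPKM in COM+Met) to 5.79 ± 0.33 in Gbp5 (256 to 294 FPKM). The adjusted p was 1.99e-08 or lower for 8 of the 9 and 9.79e-08 for Gbp2 (limma, 6 samples per group). Between these lay 4.67 ± 0.36 for Gbp2, 5.01 ± 0.28 for Gbp3, 4.38 ± 0.15 for Gbp4, 5.53 ± 0.20 for Gbp6, 2.81 ± 0.13 for Gbp7, 4.39 ± 0.17 for Gbp9 and 3.76 ± 0.15 for Gbp10 (SE). For Gbp2b, at 0.529 to 1.88 FPKM in COM+Met, the difference in mean log2 value was 1.15 (p = 0.00216, exact permutation test, the smallest possible).

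**Figure D3:**
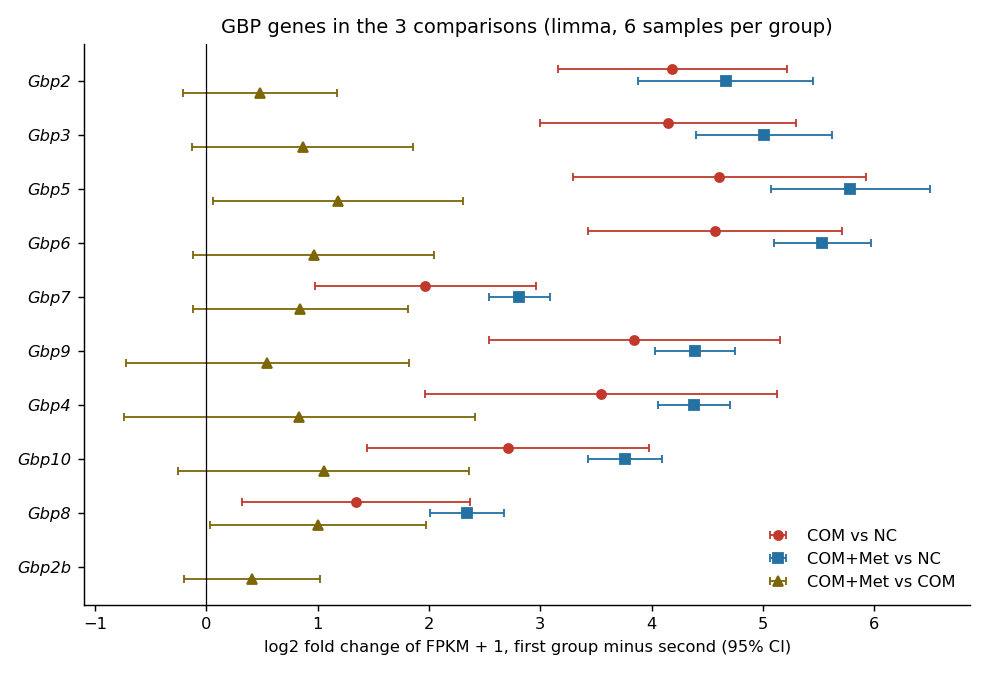
Log2 fold change of FPKM + 1 for each GBP gene (x axis) in COM against NC (circles), COM+Met against NC (squares) and COM+Met against COM (triangles), with 95% confidence intervals from limma. Gbp2b was tested only between COM+Met and COM. The intervals against NC lie above 0 for all 9 genes tested, and those of COM+Met against COM include 0 in all but Gbp5 and Gbp8.

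Between COM+Met and COM no difference in the GBP family could be called. All 10 members were tested and 0 were called in either direction, where calls were made for 0.608% (higher) and 1.61% (lower) of all 10364 genes in the test. Gbp2b averaged 0.919 FPKM in COM and 1.29 FPKM in COM+Met, and passed the filter only through COM+Met, where it was higher. At an unadjusted p below 0.05, 2 members were higher, Gbp5 and Gbp8 (adjusted p = 0.154 and 0.162 from limma). The 10 log2 fold changes were all above 0, from 0.41 in Gbp2b to 1.18 in Gbp5. By mean FPKM the direction was the opposite in Gbp4 (29.1 in COM+Met and 31.0 in COM, a ratio of 0.939) and Gbp9 (34.4 and 37.3, a ratio of 0.922). Their 95% confidence intervals were wide, reaching from -0.21 to 1.17 in Gbp2, from 0.06 to 2.30 in Gbp5 and from -0.74 to 2.41 in Gbp4, so that a change of 2-fold or more was not excluded for any of these 3. In none of the 10 did the groups stand apart, where 5.83% of genes tested had every COM+Met sample above every COM sample. The exact permutation test gave p = 0.13 to 0.429 over the 10 members, out of 30 such tests in the 3 comparisons.

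The direction of that comparison was set by the choice of COM samples. Without COM-4, COM-5 and COM-6, Gbp2b was below the filter and was not tested. The 9 members tested were called higher in COM+Met, from 1.26 ± 0.06 in Gbp2 to 2.66 ± 0.11 in Gbp4 on the log2 scale (SE). Of these, Gbp8 (0.784 to 1.202 FPKM in COM-1 to COM-3) passed the filter only through COM+Met, where it was high. Without COM-1, COM-2 and COM-3, the same 9 were below 0, from -0.09 ± 0.16 in Gbp8 to -0.98 ± 0.13 in Gbp4, and 0 were called. In that fit Gbp2, Gbp3, Gbp4 and Gbp9 had adjusted p of 0.0299, 0.033, 0.00122 and 0.00193 from limma, with changes of less than 2-fold. Gbp2b was 0.06 ± 0.34. Leaving out these samples was a choice made with the values known. With limma's sample weights, which weigh the samples by their spread, 9 were called higher. Over all genes, too, more were called in either direction without COM-4 to COM-6, and with sample weights, than in the main fit. The share of all genes called higher is not given for these fits, so the counts of members have no share beside them.

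**Figure D4:**
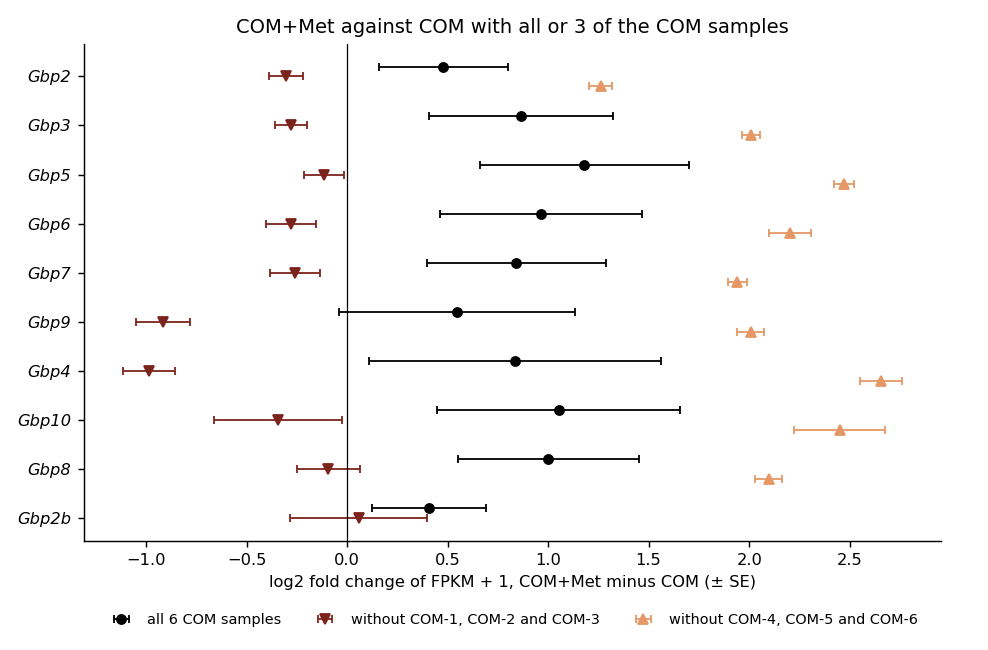
Log2 fold change of COM+Met against COM for each GBP gene with all 6 COM samples (circles), without COM-1 to COM-3 (downward triangles) and without COM-4 to COM-6 (upward triangles), with bars of ± 1 SE. All circles lie right of 0, and 9 of 10 downward triangles lie left of it. Gbp2b has no upward triangle because it was below the filter there.

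The values by sample show where COM+Met lay. Gbp4 measured 3.57 to 3.83 FPKM in COM-1 to COM-3, 53.4 to 65.7 FPKM in COM-4 to COM-6, and 37.8, 27.5, 24.1, 28.6, 27.7 and 28.8 FPKM in COM+Met. Each COM+Met sample was thus between COM-1 to COM-3 and COM-4 to COM-6. The same held for Gbp9 (7.37 to 8.52, 56.5 to 85.6 and 32.0 to 39.6 FPKM), Gbp3 (58.3 to 59.1, 276 to 315 and 227 to 263 FPKM) and Gbp2 (262 to 268, 759 to 812 and 591 to 715 FPKM). In the other 6 members the COM+Met samples were also above each of COM-1 to COM-3, and at least 1 of them reached into the range of COM-4 to COM-6. For Gbp5 they measured 294, 256, 263, 267, 268 and 263 FPKM, against 260 to 344 FPKM in COM-4 to COM-6.

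The spread within a group also differed. The coefficient of variation (SD over mean) of FPKM was 54.4% for Gbp2, 80.7% for Gbp5 and 95.5% for Gbp8 in COM, and 6.95%, 4.93% and 2.6% in COM+Met. Of the 10 members, Gbp2b and Gbp10 varied most in COM+Met, at 33.9% and 30.9%. For Gbp10 this came with the neighbour that shares its sequence: it measured 21.7 and 20.4 FPKM in COM+Met-1 and COM+Met-2 and 10.97 to 13.0 FPKM in the other 4, while Gm43302 was listed at 0 in COM+Met-1 and COM+Met-2 and at 17.8 to 26.9 FPKM in the other 4. Gbp6 was likewise highest in COM+Met-1 and COM+Met-2 (186 and 159 FPKM against 130 to 141 FPKM). Summed, Gbp6, Gbp10 and Gm43302 gave 208 and 179 FPKM in these samples and 169 to 176 FPKM in the other 4.

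The makeup of the family also differed. Shares are given of the summed FPKM of the 10 members, as a description. Gbp2 made up a median of 52.3% in NC, 53.1% in COM and 44.1% in COM+Met. In COM it was 60.4 to 61.5% in COM-1 to COM-3 and 41.1 to 45.7% in COM-4 to COM-6. Gbp5 took 4.88 to 9.91% in NC, 10.6 to 17.4% in COM and 17.97 to 19.2% in COM+Met, and it was the only member whose share was apart in all 3 groups. Gbp6 rose from 3.79 to 5.44% in NC to 6.47 to 10.3% in COM. Gbp7 went the other way, from 12.2 to 29.3% in NC to 3.66 to 5.13% in COM and 4.37 to 4.72% in COM+Met, although its FPKM was higher there. The share of Gbp8 was also lower in COM (0.179 to 0.586%) than in NC (0.738 to 2.56%). A share can fall only because others rose.

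**Figure D5:**
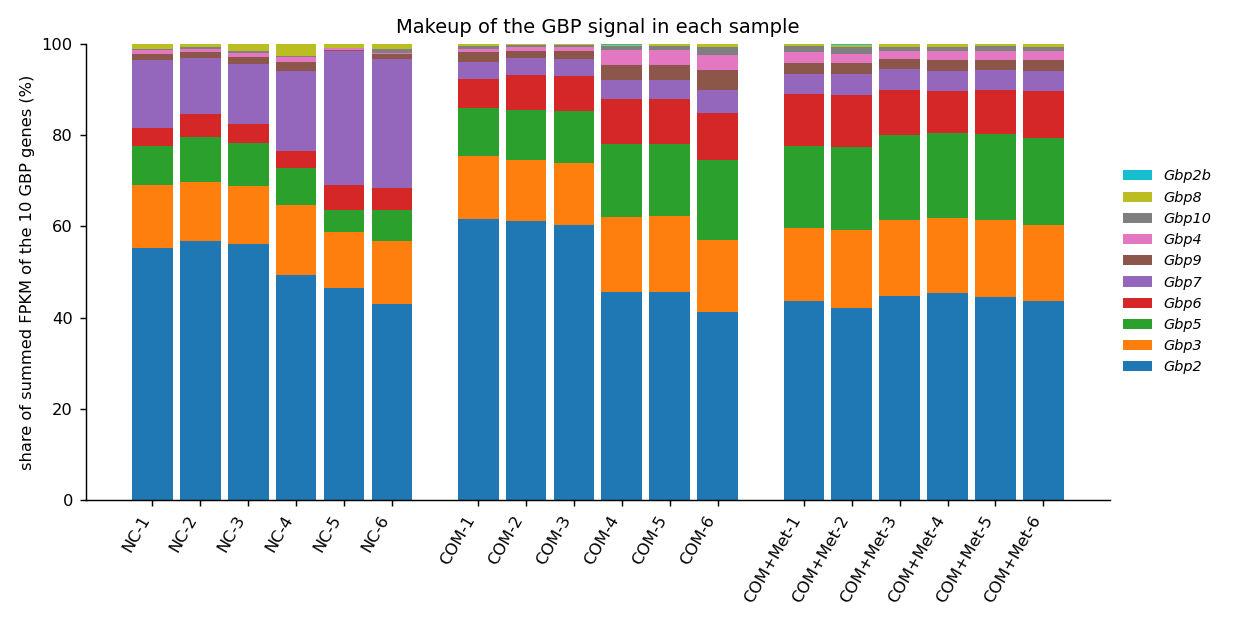
Share of each GBP gene in the summed FPKM of the 10 genes (y axis, %) in each of the 18 samples, as stacked bars. Gbp7 shrinks from 12.2 to 29.3% in NC to at most 5.13% in COM, and Gbp5 grows to 17.97 to 19.2% in COM+Met. COM-4 to COM-6 look more like COM+Met than like COM-1 to COM-3.

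By mean FPKM the order in NC was Gbp2, Gbp7, Gbp3, Gbp5, Gbp6, Gbp9, Gbp8, Gbp4, Gbp10 and Gbp2b, and the range of each overlapped with that of the next. In COM it was Gbp2, Gbp3, Gbp5, Gbp6, Gbp7, Gbp9, Gbp4, Gbp10, Gbp8 and Gbp2b, again with overlapping neighbours because the COM samples spread so far. Within each sample the order was steadier, and 6 of 6 COM samples had more Gbp2 than Gbp3 and more Gbp5 than Gbp6, while 5 of 6 had more Gbp3 than Gbp5. In COM+Met Gbp5 passed Gbp3, in 6 of 6 samples. The ranges of neighbours then overlapped only between Gbp5 and Gbp3 and between Gbp9 and Gbp4.

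Of the related rows, Gbp11, annotated as a polymorphic pseudogene, was listed at no more than 0.128 FPKM in NC and no more than 0.0589 FPKM in COM-1 to COM-3. It measured 8.12, 9.42 and 11.7 FPKM in COM-4 to COM-6 and 7.61 to 13.4 FPKM in COM+Met. It was not called in COM against NC (log2 fold change 1.65 ± 0.67, SE, adjusted p = 0.0542 from limma) and was called in COM+Met against NC (3.26 ± 0.11). Gbp11 averaged below 1 FPKM in NC and passed the filter only through COM or COM+Met, where its mean was higher.

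The genes that act on GBPs were read from lists of their ligands and receptors, signalling factors, relatives and partners. Among all genes tested in COM against NC, 5.99% were called higher and 11.7% lower, and in COM+Met against NC 5.66% and 13.6%, and the counts below stand beside these shares. Nothing about a list is read from its 1 or 2 genes called lower. Batf2, Iigp1, Tgtp1, Tgtp2, Gm4951, Mx2 and Phf11d averaged below 1 FPKM in NC and entered the test only through the group where they were high. The GBPs' inducers, the interferons, were below 1 FPKM throughout. Ifng was listed at no more than 0.0622 FPKM in any sample, and Ifna2 and Ifna4 at 0 in every sample. Ifnb1, the gene of interferon beta, was listed at no more than 0.194 FPKM in NC and 0.184 FPKM in COM-1 to COM-3, at 0.760 to 0.835 FPKM in COM-4 to COM-6 and at 0.195 to 0.653 FPKM in COM+Met, and so was split among the COM samples in the direction of the GBPs. No interferon gene passed the filter, and the 5 genes of this list that were tested were all receptor genes. Of these, 1 was called higher in COM, the type I interferon receptor chain Ifnar2 (44.5 FPKM in NC and 120 in COM on average, log2 fold change 1.39 ± 0.16). It was called higher in COM+Met against NC too, where the interferon gamma receptor chain Ifngr1 was called lower (-1.09 ± 0.12). Ifngr1 was also lower in COM against NC (-0.81 ± 0.17, adjusted p = 0.00135 from limma), but by less than 2-fold. It was not called between COM+Met and COM (-0.28 ± 0.12).

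Of 11 JAK, STAT and IRF genes tested, 6 were called higher in COM and 0 lower, with a median log2 fold change of 1.13 against -0.27 over all genes. Stat2, which acts downstream of type I interferon, rose from a mean of 16.1 to 86.4 FPKM (2.26 ± 0.28). Jak2, a kinase of the interferon gamma receptor, rose by 2.29 ± 0.28, and Batf2, a factor that works with Irf1, by 2.87 ± 0.49. Stat2 was split among COM samples as the GBPs were, with 50.5 to 52.2 FPKM in COM-1 to COM-3 and 112 to 131 FPKM in COM-4 to COM-6. Irf8, another factor of this list, was split the other way, with 87.5 to 91.02 FPKM in COM-1 to COM-3 and 30.3 to 57.6 FPKM in COM-4 to COM-6. Irf9 was hardly split (28.5 to 33.5 and 33.2 to 34.7 FPKM).

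The immunity-related GTPases (IRGs), are smaller GTPases that work on the same vacuoles. Of 12 tested, 8 were called higher in COM, 1 was called lower and 3 were not called. Tgtp2 rose from a mean of 0.562 to 40.1 FPKM (3.76 ± 0.77, adjusted p = 0.00134 from limma), Ifi47 from 9.63 to 86.8 FPKM (2.96 ± 0.34), Tgtp1 by 2.87 ± 0.77 and Irgm1, a regulator of the other IRGs, from 16.9 to 130 FPKM (2.77 ± 0.32). Tgtp1 and Tgtp2 are near-identical copies, and their values are uncertain. The gene called lower was Irgc1, at 2.03 to 5.67 FPKM in NC and at most 0.199 FPKM in COM. Irgc1 averaged below 1 FPKM in COM and in COM+Met and entered both tests against NC only through NC, where it was high. In COM+Met, 8 were higher than in NC and 1 lower, with Iigp1 at 3.74 ± 0.11. The other interferon-inducible large GTPases were called in 4 of 4 cases in both comparisons with NC. Mx1, an antiviral GTPase, rose by 4.48 ± 0.75 in COM, Mx2 by 3.34 ± 0.58, and Gvin1 and Gm4070, copies of 1 gene family, by 2.76 ± 0.50 and 2.74 ± 0.50.

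Of 14 inflammasome genes tested, 6 were called higher in COM and 2 lower. Il1b rose from a mean of 86.8 to 535 FPKM (3.55 ± 0.80, adjusted p = 0.00255 from limma), Mefv, the gene of pyrin, by 3.20 ± 0.43, Casp4 from 16.5 to 68.0 FPKM (1.90 ± 0.27) and Casp1 from 33.1 to 103 FPKM (1.43 ± 0.30). Against 5.99% and 11.7% of all genes, the share called lower was near the background. The genes called lower were Pycard, the adaptor of inflammasomes (20.3 to 31.4 FPKM in NC and 7.81 to 12.7 FPKM in COM), and Il18 (7.66 to 14.5 and 2.57 to 8.75 FPKM). Casp4 was split among the COM samples (39.3 to 43.9 and 80.7 to 118 FPKM), and Il1b was not (455 to 609 and 455 to 573 FPKM). With all samples, Il1b was also the only gene of these lists called between COM+Met and COM. It fell by 1.64 ± 0.10 on the log2 scale, to a mean of 170 FPKM (adjusted p = 5.61e-06 from limma), and no COM+Met sample (159 to 184 FPKM) reached the COM samples. Aim2, which GBPs serve, measured 20.3 to 22.5 FPKM in NC and 19.1 to 41.7 FPKM in COM.

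Of 13 tested genes listed under vacuole attack and xenophagy, roles that were not tested here, 5 were called higher in COM and 1 lower (5.99% and 11.7% of all genes). The 7 not called were Atg5, Atg12, Atg16l1, Atg3, Gabarapl2, Map1lc3b and Sqstm1. Phf11d rose by 4.72 ± 0.52, Nos2, the inducible nitric oxide synthase, by 3.84 ± 1.07 (adjusted p = 0.00922 from limma), and the ubiquitin ligases Rnf213 and Trim21 by 2.94 ± 0.35 and 1.61 ± 0.28. Atg7, needed for the conjugation steps of autophagy, was the gene called lower (26.1 to 47.5 FPKM in NC and 7.82 to 25.4 FPKM in COM). Nos2 was split among the COM samples, with 4.42 to 5.203 FPKM in COM-1 to COM-3 and 170 to 260 FPKM in COM-4 to COM-6. Of 9 genes listed as restraining interferon signalling, a role that was not tested here, 4 were called higher and 0 lower (5.99% and 11.7% of all genes). Isg15, a ubiquitin-like protein, rose from a mean of 13.4 to 589 FPKM (5.44 ± 0.54), Usp18, which blocks the type I receptor, by 4.38 ± 0.60, and Socs1 and Socs3, inhibitors of JAK kinases, by 2.26 ± 0.40 and 1.90 ± 0.50. The same 4 were called higher in COM+Met against NC. Over the list genes given with an SE in COM against NC, the adjusted p from limma ran from 5.42e-06 in Isg15 to 0.00922 in Nos2.

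Many of these values rested on the COM samples used. The shares of all genes given above are from fits with all samples. Those of the reduced fits are not given, so the counts below have no share beside them. Without COM-4, COM-5 and COM-6, the genes called higher against NC were 1 of 5 receptor genes, 6 of 11 JAK, STAT and IRF genes and 6 of 10 IRGs. They were also 4 of 4 large GTPases, 4 of 14 inflammasome genes, 4 of 13 vacuole genes and 3 of 9 restraining genes. Without COM-1, COM-2 and COM-3 they were 1, 6, 10 of 12, 4, 4, 5 and 4, and without NC-5 and NC-6 they were 1, 5, 7 of 12, 4, 5, 4 and 4. Nos2 fell from 6.43 ± 0.46 without the first 3 COM samples to 1.25 ± 0.46 without the other 3 (adjusted p = 0.0446 from limma), and its call was lost without NC-5 and NC-6 (3.29 ± 1.25, adjusted p = 0.0535). For Mx1 the values were 6.04 ± 0.60 and 2.93 ± 0.61, and for Tgtp2 5.66 ± 0.21 and 1.85 ± 0.22. Tgtp1 was at 4.81 ± 0.13 without COM-1 to COM-3, and it and Iigp1 fell below the filter without COM-4 to COM-6. The calls of Casp1 (0.71), Pycard (-0.90), Trim21 (0.96), Atg7 (-0.70), Irf1 (0.66) and Socs3 (1.38, adjusted p = 0.0546 from limma) were lost without COM-4 to COM-6, and those of Il18 (-0.82) and Naip2 (0.84) without COM-1 to COM-3. The call of Nlrp3, at 1.00 with all samples, was lost in each of the 3 fits (0.46 to 1.02), and those of Irf1 (0.78), Pycard (-0.89) and Iigp1 (2.63, adjusted p = 0.0628 from limma) were lost without NC-5 and NC-6. Il1b was at 3.60 ± 1.15 and 3.51 ± 1.12 in these fits and at 2.19 ± 0.28 without NC-5 and NC-6.

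The same dependence held between COM+Met and COM. Without COM-4, COM-5 and COM-6, 9 of 11 IRGs, 4 of 4 large GTPases and 4 of 13 vacuole genes were called higher in COM+Met. Among them were Nos2 (3.76 ± 0.08) and Mx1 (1.77 ± 0.06). The counts in the other lists were 2 of 11 JAK, STAT and IRF genes, 3 of 9 restraining genes, 1 of 14 inflammasome genes and 0 of 5 receptor genes. In that fit Il1b and Naip2 were called lower. Iigp1 averaged 0.838 FPKM in COM-1 to COM-3 and passed the filter only through COM+Met, where it was high. The share of all genes called in these reduced fits is not given, so these counts have no share beside them. Without COM-1, COM-2 and COM-3, 3 IRGs (Iigp1, Tgtp1 and Tgtp2) were called lower, as were Nos2 (-1.42 ± 0.13) and Mx1 (-1.35 ± 0.10). Il1b was called lower in both fits (-1.68 ± 0.08 and -1.59 ± 0.09).

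The genes most like the family were found by Pearson's r over the 18 samples with the mean log2 value of the 9 members that passed the filter over all samples. The 3 groups and the kinds of COM sample are shared by all genes, so the values are a description. They were Cd274 (r = 0.998), the gene of PD-L1, Rsad2 (0.994), the antiviral enzyme viperin, B2m (0.993), the light chain of MHC class I, Trim34a (0.993) and Irgm2 (0.993), an IRG. Cd274 ran from 59.9 to 104 FPKM in NC, from 199 to 626 FPKM in COM and from 455 to 508 FPKM in COM+Met. B2m ran from 796 to 1215, from 3460 to 9861 and from 7218 to 7681 FPKM, while Rsad2, the gene among them that was lowest in NC, ran from 0.574 to 14.4, from 55.5 to 1099 and from 547 to 605 FPKM.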

How the data were processed

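RNA-seq of BMDMs covered 18 samples in 3 groups of 6, which were read from the labels. The authors deposited FPKM values for each sample, made from TruSeq libraries of total RNA. Bowtie 0.12.2, mm8 and mm9 stand in the submitters' processing notes, without their roles. The quantifier is not given in the sources used here. Depth cannot be read from FPKM, so values carry no counting error and no detection limit.

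Genes that averaged 1 FPKM or more over the 12 samples of a comparison were tested on log2(FPKM + 1) with limma 3.58.1 in R 4.3.3 (lmFit, eBayes with trend), with Benjamini-Hochberg adjustment over all genes tested. Calls needed an adjusted p below 0.05 and at least 2-fold. All members were also compared by two-sided exact permutation tests. The procedure was tested on simulated data. Positions and shared words came from GENCODE M21 on GRCm38, matched by Ensembl identifier, and promoters from RefSeq. Tables were made with Python 3.11.15, pandas 2.3.3 and numpy 2.4.6.

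Members and lists were chosen with earlier results of these data known. All members were named, with, for each list and comparison, up to 4 called genes with non-overlapping groups that changed most, and the 5 genes most correlated with the family. The values of Irf1, Irf8, Irf9, Aim2, Nlrp3, Naip2, Iigp1, Irgc1, Pycard, Il18, Atg7, the interferon genes, Gbp11 and Gm43302 were given outside that rule or after they were seen. A gene that this rule names is not reported here. Same-numbered samples of different groups did not deviate together: 18 correlations of their deviations lay between -0.222 and 0.057. Alternatives were pseudocounts of 0.1 and 5, no filter, a filter of 5 FPKM, values rescaled to the same sum (TPM), size factors from median ratios, quantile normalisation, all 18 samples in the fit, sample weights, a replicate block, Gbp6 and Gbp10 summed, and each sample left out. Leaving out COM-1 to COM-3, COM-4 to COM-6, or NC-5 and NC-6 was an alternative chosen after seeing the data.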

Additional observations from a re-analysis of the deposited data

Results flagged for a closer look

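In 30 groups of 6 samples, the following values lay further from the rest than Dixon's 95% limit, which chance passes in about 1 of 20 groups. Gbp2b measured 3.52 FPKM in COM-4, where the next highest COM sample had 0.602 FPKM. Gbp10 measured 34.8 FPKM in COM-6 (next highest 13.9) and was listed at 0 in NC-5 (next lowest 0.132). COM+Met-1 was the highest COM+Met sample in Gbp3 (263 FPKM, next 240), Gbp4 (37.8, next 28.8), Gbp5 (294, next 268) and Gbp9 (39.6, next 34.4). These 4 values come from the same library and are not independent.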

How the results depend on the processing

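In COM against NC the 9 called members became 7 with sample weights, 8 with a pseudocount of 5, no filter or a filter of 5 FPKM, 10 with the same sum in each sample, and 8 to 9 with 1 sample left out. In COM+Met against NC they were 8 to 10 under all alternatives. The calls lost in these fits were those of Gbp7 and Gbp8, and the call gained was that of Gbp2b. Between COM+Met and COM, 0 members were called under most settings, but 9 with sample weights, 9 without COM-4, COM-5 and COM-6, and 0 to 3 with 1 sample left out (3 without COM-6, namely Gbp5, Gbp8 and Gbp10). The direction reversed without COM-1, COM-2 and COM-3 in Gbp2 (-0.30), Gbp3 (-0.28), Gbp4 (-0.98), Gbp5 (-0.11), Gbp6 (-0.28), Gbp7 (-0.26), Gbp8 (-0.093), Gbp9 (-0.92) and Gbp10 (-0.34). The cause was not tested. Over all genes, 1926 were called in COM against NC (980 with a pseudocount of 5), 2078 in COM+Met against NC (1117 with a pseudocount of 5) and 230 in COM+Met against COM (370 and 90 with pseudocounts of 0.1 and 5, 416 with the same sum, 719 with sample weights, 771 without COM-4 to COM-6, and 182 to 300 with 1 sample left out). In a fit with a replicate block, 9, 0 and 9 members and 1920, 202 and 2080 genes were called in COM against NC, COM+Met against COM and COM+Met against NC, and the numbers do not pair the samples. Read depth is unknown, which limits values of Gbp2b, Gbp10 and Gbp8 in NC.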
